A study of Mus musculus with 32 samples.

Results

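The superoxide dismutases and the enzymes that clear peroxide were read in motor neurons and surrounding glia taken by laser capture from the lumbar cord. The 10 genes, of 19694 named on the array, were chosen by name: Sod1, Sod2, Sod3, Ccs, Cat, Gpx1, Gpx4, Prdx1, Prdx2 and Prdx3. Of 41174 non-control probes on the array, 16 carried one of these names, and every probe was read separately. The study compared transgenic female mice with littermate controls in 4 groups of 4 pairs, each pair hybridised on 2 two-colour Agilent arrays with the dyes exchanged. SODmn and SODgl are the motor neurons and glia of 8-week-old B6SJL-Tg(SOD1-G93A)1Gur mice, which carry a mutant human SOD1, against B6SJL littermates. TAUmn and TAUgl are those of 16-week-old B6D2F1-Tg(TAU-P301L) mice, with a mutant tau transgene, against B6D2F1 littermates. Strain and age therefore differ between the models and cannot be told apart from the transgene when the models are compared. Each extract came from 500 cells of 1 mouse, captured from Nissl-stained sections.

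Superoxide dismutases turn superoxide into hydrogen peroxide and oxygen. Sod1 works in the cytosol with copper and zinc, Sod2 in mitochondria with manganese, and Sod3 outside the cell, and Ccs is the chaperone that loads copper into Sod1. The peroxide is then removed by catalase (Cat) in peroxisomes, by the selenium enzymes Gpx1 and Gpx4, which use glutathione (Gpx4 acts on lipid peroxides), and by the peroxiredoxins Prdx1 and Prdx2 in the cytosol and Prdx3 in mitochondria, which are recycled by thioredoxin. Mutant human SOD1 causes a familial form of amyotrophic lateral sclerosis, and SOD1-G93A mice are a standard model of it. The probes of the array are for mouse transcripts, and how far any of them reads human SOD1 was not tested.

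1 of the 32 arrays stood apart before any result. The array of SODmn pair 3 with the transgenic extract in Cy3 has its spots 2 rows out of place: its Cy3 signals correlated with those of the other arrays at -0.010 in place and at 0.61 after a shift of 2 rows, and Sod1 probe 1, bright elsewhere, read 48.8 in Cy3. That pair was left out, so that SODmn has 3 pairs and the other groups 4, and control motor neurons have 7 extracts and control glia 8. Arrays measured between 9.09% and 79.3% of spots well above background in a channel, which limits what can be read of dim probes. After turning the ratios to transgenic over control, the 2 arrays of a pair correlated between -0.75 and 0.65 over the tested probes, and 5 of 15 pairs were below 0; the means of both arrays are used below.

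The labelled cell types were checked with marker genes in the control extracts. Of the 16 markers of motor neurons that could be tested, 8 passed an adjusted p of 0.05 (limma) on the motor neuron side, among them Calca by 2.57, Nefl by 1.81 and Nefm by 1.73 on the log2 scale, and 2, Mnx1 and Esrrg, were higher in glia. Chat, the enzyme that makes acetylcholine and a defining motor neuron marker, differed by only -0.048 (adjusted p = 0.595). Of 10 interneuron markers, 8 were also higher in the motor neuron extracts, such as Slc6a5 by 0.83. In glia, 7 of 10 oligodendrocyte markers were higher (Mag, motor neurons minus glia -1.46), as were 6 of 12 astrocyte markers (Glul, -1.31) and 1 of 10 microglia markers (Trem2, -0.67). Fewer cells of a type and less RNA per cell cannot be told apart in these extracts.

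3 members were higher in control motor neurons than in control glia: catalase, Gpx1 and Prdx2. Levels are log2 intensities normalised within and between arrays. They are compared only within a probe, since a probe's brightness also depends on its sequence. Of 11 member probes tested, 4 passed an adjusted p of 0.05 (limma), all higher in motor neurons, and none passed the other way (4 probes also at an unadjusted p under 0.05). Over all 15661 probes tested, 34.3% were called higher in motor neurons and 10.4% higher in glia (44.7% either way), so the members' 36.4% higher in motor neurons is near the background. Of the 4, Prdx2 probe 3 met the filter through the motor neuron extracts alone. The median of all tested probes was itself 0.14 higher in motor neurons. All motor neuron arrays were read with another version of the scanner software, and in other scans, than all glia arrays, so cell type, scan and software cannot be told apart.

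**Figure D1:**
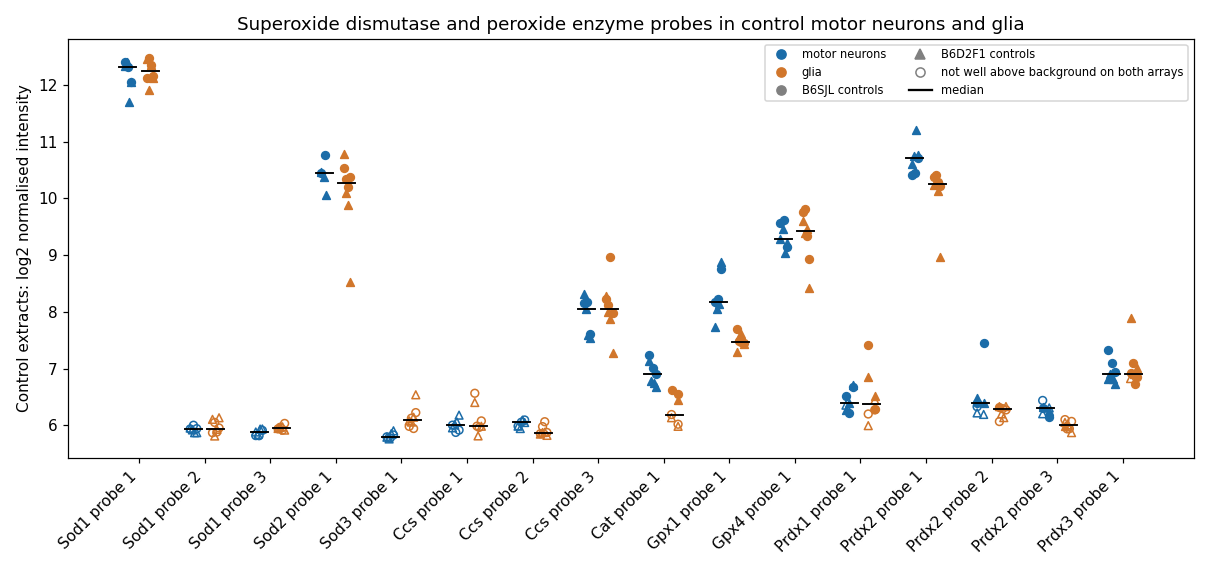
Level of all 16 member probes in control extracts, as log2 normalised intensity; each point is 1 extract (7 of motor neurons, 8 of glia; circles B6SJL, triangles B6D2F1 controls), open where it was not well above background on both arrays, and lines are medians. Gpx1 shows no overlap between the cell types, Sod1 probe 1 overlaps between them, and the glia points of Cat and of Prdx2 probes 2 and 3 are partly or mostly open.

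Cat, probe A_52_P679769, ranged from 6.68 to 7.24 with a median of 6.90 in the 7 control motor neuron extracts. In the 7 glia extracts with a value it ranged from 5.98 to 6.62 with a median of 6.19. The cell types did not overlap in the extracts with a value. All motor neuron extracts exceeded all glia extracts for 9.21% of all probes tested. That share counts a probe with any missing extract as overlapping, so it is a lower bound for the rule used for Cat. The probe was well above background in all 7 motor neuron extracts and in 4 of the 8 of glia, so the glial level is close to the lowest that can be measured and no fold is given. The normalised values differed by 0.67 ± 0.12 (SE, log2), with adjusted p = 6.1e-04, and by 0.71 in the B6SJL and 0.64 in the B6D2F1 controls. In the scanner's own processed signals the difference was 1.63, beside a median over all probes of 0.44.

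Gpx1, probe A_52_P684378, ranged from 7.74 to 8.88 in motor neurons (median 8.18) and from 7.30 to 7.70 in glia (median 7.47), again with no overlap. It was 1.73-fold higher in motor neurons (0.79 ± 0.14 on the log2 scale, adjusted p = 6.6e-04). In the B6D2F1 controls alone the difference was 0.72, with adjusted p = 0.0575. A further probe (A_51_P119726) is given to this transcript only by the older annotation in the files and is not among the 16. It ranged from 6.23 to 6.61 in motor neurons and from 5.99 to 6.80 in glia, with a difference of 0.052 (adjusted p = 0.74). The further probe was well above background in 5 of 7 motor neuron and 3 of 8 glia extracts. The 2 probes differ, but the further one was read partly near background and cannot decide on the result of the other.

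Prdx2, the cytosolic peroxiredoxin also abundant in red cells, has 3 probes. Probe 1, A_51_P147207, spotted 10 times on each array, ranged from 10.41 to 11.20 in motor neurons and from 8.97 to 10.42 in glia, and the groups overlapped slightly. Its difference was 0.59 ± 0.19 (adjusted p = 0.021). It was 0.92 in the B6D2F1 controls alone (adjusted p = 0.0609) and 0.21 in the B6SJL controls alone (adjusted p = 0.292), and whether the colonies differ was not tested. Of the B6D2F1 glia controls, that of pair 4 read 8.97 and the others 10.14 to 10.29. The arrays of that pair had 9.09% and 13.6% of spots well above background in Cy5, and 40.0% and 35.2% in Cy3. Leaving out 1 pair or extract, the difference over both colonies ran from 0.41 to 0.66 (adjusted p from 0.0082 to 0.044). With every array used as deposited, the misplaced one included, it was 0.35 and did not pass (adjusted p = 0.348). Probe 3 (A_52_P893440) was well above background in 4 of 7 motor neuron extracts and 1 of 8 of glia, so its glial level is near the lowest that can be measured and the size of its difference is not known. Its normalised values passed the test (adjusted p = 0.0021), but in neither colony alone (adjusted p = 0.14 and 0.062). Probe 2 (A_52_P550034), above background in 4 and 1 extracts, did not pass (adjusted p = 0.156).

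The other tested members did not pass. Sod1 probe 1 ranged from 11.70 to 12.41 in motor neurons (median 12.31) and from 11.90 to 12.47 in glia (median 12.25), and the groups overlapped. Its difference was -0.055, with a 95% interval of -0.30 to 0.19 (adjusted p = 0.721). Sod2 differed by 0.37 (-0.22 to 0.96), Gpx4 by 0.0088 (-0.36 to 0.38), Prdx1 by -0.049 (-0.42 to 0.33), Prdx3 by -0.084 (-0.41 to 0.24) and Ccs probe 3 by -0.15 (-0.55 to 0.26). These directions rest on the scaling: in the scanner's processed signals, whose median over all probes was 0.44 higher in motor neurons, Sod1 was 0.73, Prdx3 0.73, Gpx4 0.81 and Prdx2 probe 2 1.04 higher in motor neurons (adjusted p from 0.0122 to 0.0305) and Sod2 1.30 (adjusted p = 0.0023).

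5 probes were not tested because they were hardly above background anywhere. Sod3 was not well above background in any control extract, with levels of 5.76 to 6.54. The same held for Sod1 probes 2 and 3 and for Ccs probe 2, and Ccs probe 1 was above background in 1 glia extract. Sod1 probes 2 and 3 lie at chr16:90111887-90111946 and chr16:90112795-90112854 and probe 1 (A_51_P367381) at chr16:90115111-90115170 in the coordinates of the scanner files, whose genome build is not given in the sources used here. Over all extracts, probe 3 was above background in 1 transgenic extract of TAUgl and probe 2 in none. Only probe 1 met the filter, so it alone bears on the results.

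The 250 bases before and 50 after the transcription start of the 3 genes that were higher in motor neurons are shown beside those of Sod1, which did not pass, from the RefSeq promoter table (GRCm38.p6), where 8 of the 10 genes matched. Capitals mark 3 motifs searched on both strands: the antioxidant response element core TGACNNNGC, the GC box GGGCGG and the TATA box TATAAA. Adjacent GC boxes may share bases, and no motif overlaps one of another kind in these 4 windows.
Cat, chr2:103485104-103485403, minus strand: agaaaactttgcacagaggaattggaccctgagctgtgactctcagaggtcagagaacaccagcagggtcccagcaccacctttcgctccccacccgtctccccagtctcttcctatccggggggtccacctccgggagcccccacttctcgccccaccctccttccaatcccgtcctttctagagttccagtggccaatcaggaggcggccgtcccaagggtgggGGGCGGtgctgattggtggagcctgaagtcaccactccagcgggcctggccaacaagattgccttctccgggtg
Gpx1, chr9:108338830-108339129, plus strand: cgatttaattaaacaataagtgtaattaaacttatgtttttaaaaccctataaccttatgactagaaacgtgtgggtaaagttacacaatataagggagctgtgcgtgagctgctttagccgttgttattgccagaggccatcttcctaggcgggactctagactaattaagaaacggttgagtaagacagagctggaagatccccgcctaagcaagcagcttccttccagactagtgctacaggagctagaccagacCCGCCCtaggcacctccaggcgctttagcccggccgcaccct
Prdx2, chr8:84969372-84969671, plus strand: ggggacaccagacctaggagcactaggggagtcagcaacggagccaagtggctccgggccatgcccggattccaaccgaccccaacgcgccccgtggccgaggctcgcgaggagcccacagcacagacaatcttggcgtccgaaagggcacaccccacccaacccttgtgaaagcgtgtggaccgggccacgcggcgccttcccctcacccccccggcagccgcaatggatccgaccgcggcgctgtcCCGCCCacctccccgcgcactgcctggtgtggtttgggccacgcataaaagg
Sod1, chr16:90220512-90220811, plus strand: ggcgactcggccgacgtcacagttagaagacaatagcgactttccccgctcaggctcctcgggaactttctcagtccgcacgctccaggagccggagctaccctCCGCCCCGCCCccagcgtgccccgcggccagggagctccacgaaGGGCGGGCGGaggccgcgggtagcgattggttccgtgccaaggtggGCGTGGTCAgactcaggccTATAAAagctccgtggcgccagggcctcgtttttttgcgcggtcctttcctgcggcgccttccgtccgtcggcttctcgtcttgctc
The GC box occurred once each in Cat, Gpx1 and Prdx2 and at 4 positions in Sod1, and in 7 of the 8 matched members, against 35.7% of all 32851 promoters of that length. The antioxidant element core was found in Sod1 and Prdx1 alone of the 8 (12.4% of all promoters), and the TATA box letters in 3 of the 8 (13.6%). A match is a description of the letters.

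No member passed the test in any transgenic comparison. The adjusted p was 0.265 or more for each of the 39 tested probe values (11 probes in SODmn, 9 in SODgl, 10 in TAUmn and 9 in TAUgl), and 0% of all probes passed in each comparison by limma. Without SODmn pair 2, 77 of all probes passed in SODmn (11 higher and 66 lower), and no member was among them. At an unadjusted p under 0.05 there were 2 member probes in SODmn (9.44% of all 18727 probes tested), 0 in SODgl (15.1% of 12249), 2 in TAUmn (3.72% of 14104) and 2 in TAUgl (13.2% of 10233). The tested members' median log2 ratio was -0.022, -0.030, 0.050 and 0.045 in these groups in order, against -0.0026, 0.016, -0.0040 and 0.0014 over all probes tested. Testing required a signal well above background, on both arrays, for 50% or more of a group's extracts, so these counts leave out the dim probes.

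Means above 0 were found for 5 of 11 member probes in SODmn (48.8% of all probes), 4 of 9 in SODgl (56.8%), 8 of 10 in TAUmn (47.6%) and 5 of 9 in TAUgl (50.6%). With all pairs measured and of 1 sign there were 5 of 11 in SODmn (23.5% of all probes), 1 of 9 in SODgl (18.4%), 1 of 10 in TAUmn (12.8%) and 2 of 9 in TAUgl (17.5%). The 5 in SODmn were Ccs probe 3 and Prdx2 probe 1 above 0, and Cat, Gpx1 and Prdx2 probe 2 below.

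**Figure D2:**
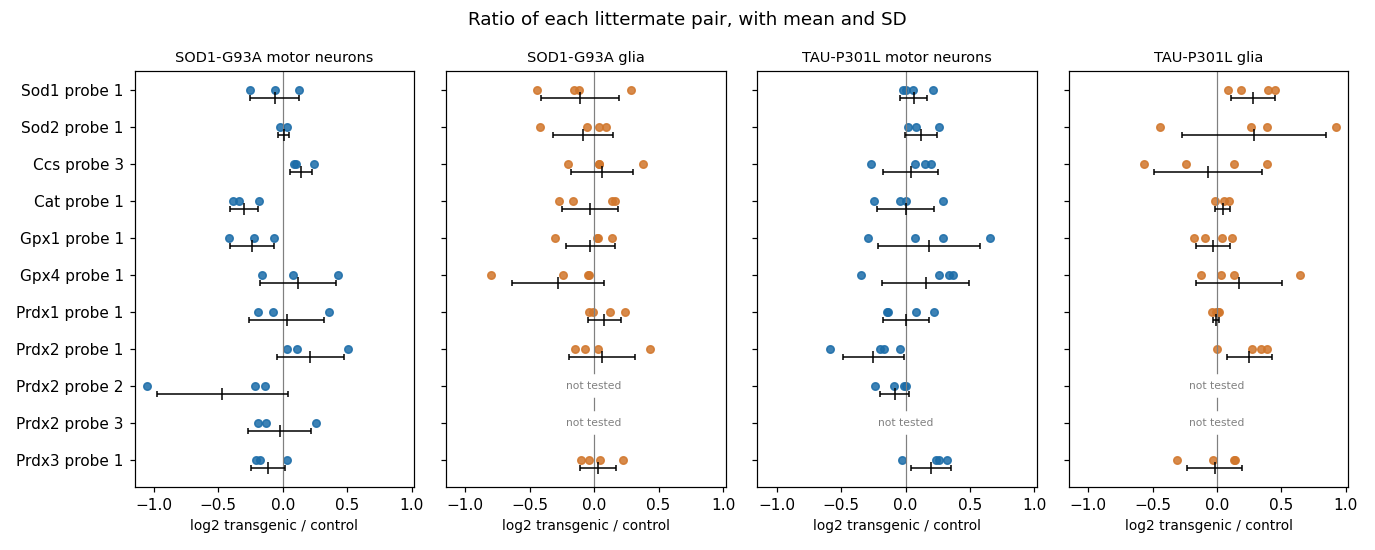
Log2 ratio of transgenic over control for each littermate pair (points) with the mean and SD over pairs (bars), for the 11 member probes tested in at least 1 comparison. Most rows scatter on both sides of 0; Cat lies below 0 in all 3 SODmn pairs and Sod1 above 0 in all 4 TAUgl pairs.

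The Sod1 probe did not separate SOD1-G93A extracts from controls. In motor neurons the transgenic extracts read 12.35, 12.06 and 12.18 in pairs 1, 2 and 4, and their controls 12.41, 12.31 and 12.05. The groups overlapped, and the ratio was -0.061 ± 0.19 (SD, n = 3; adjusted p = 0.908), with a 95% interval of -0.30 to 0.18. In glia the transgenic extracts read 12.01, 12.03, 12.19 and 12.44 against 12.13, 12.48, 12.35 and 12.15, a ratio of -0.11 ± 0.30 (SD, n = 4; adjusted p = 0.687) with an interval of -0.31 to 0.098. Pair 4 lay above 0 and the other 3 below it.

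In TAU-P301L mice the same probe read -0.019 to 0.21 in the motor neuron pairs (mean 0.062, adjusted p = 0.995). In TAUgl its ratio was above 0 in all 4 pairs, at 0.45, 0.40, 0.087 and 0.19. The mean was 0.28 ± 0.17 (SD, n = 4), with limma unadjusted p = 0.0114 and adjusted p = 0.265. The 2 arrays of a pair gave -0.51 and 1.40 in pair 1, 0.34 and -0.16 in pair 3, and 0.41 and -0.037 in pair 4. Only in pair 2 were both arrays above 0 (0.68 and 0.11). Without pair 1 the mean was 0.22. Beside it, in the TAUgl pairs the mean over the general neuron markers was above 0 in every pair (0.095 to 0.29; 5 of 7 markers above 0). The means over the astrocyte markers (-0.30 to -0.046; 11 of 12 below 0) and the oligodendrocyte markers (-0.37 to -0.026; 8 of 10 below 0) were below 0 in every pair. Those over the motor neuron markers (-0.22 to 0.37; 9 of 13 above 0) and the interneuron markers (-0.20 to 0.11; 5 of 7 below 0) lay on both sides of 0. Their part in the result was not tested. The SOD1-G93A glia ratio minus the TAU-P301L glia ratio was -0.39 (unadjusted p = 0.0128, adjusted p = 0.778), where 5.54% of all probes had an unadjusted p under 0.05, and -0.22 without the 2 pairs of the scan with a high Cy5 signal.

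**Figure D3:**
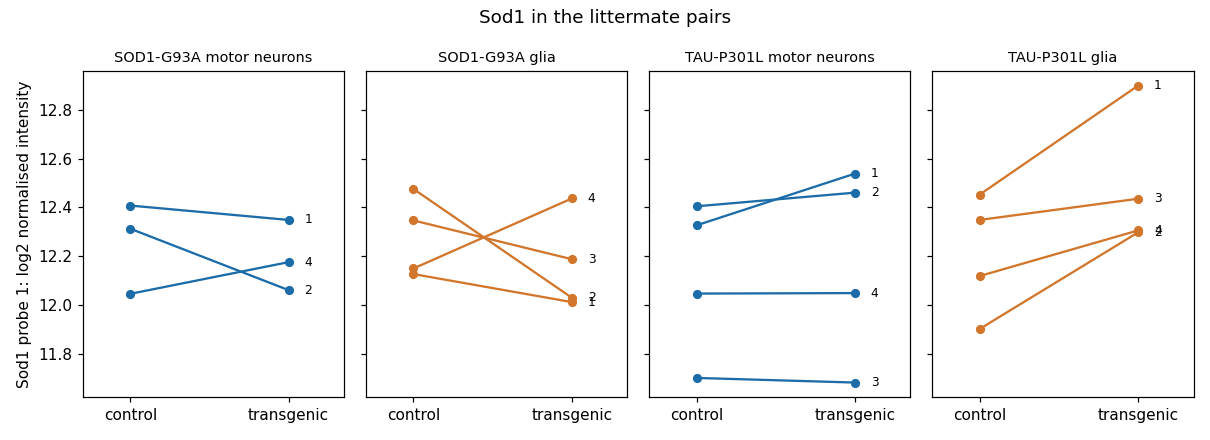
Sod1 probe 1 in control and transgenic extracts, as log2 normalised intensity, 1 line per littermate pair labelled with its number. Pairs go both ways in 3 panels, and in TAU-P301L glia all 4 lines go up, by 0.087 to 0.45.

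Sod2 and Ccs, the mitochondrial dismutase and the Sod1 chaperone, had no comparison past the threshold. Sod2 ranged from -0.44 to 0.92 over the 4 TAUgl pairs (mean 0.28 ± 0.56 SD, adjusted p = 0.496), and its SODmn mean of 0.0072 rests on 2 pairs, since a spot of pair 4 carried an outlier mark and was dropped. Ccs probe 3 was above 0 in all 3 SODmn pairs (0.088, 0.24 and 0.10; adjusted p = 0.812) and spread from -0.57 to 0.38 in TAUgl.

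Catalase had its ratio with the smallest p in SOD1-G93A motor neurons. The transgenic extracts read 6.90, 6.83 and 6.52 against 7.24, 7.01 and 6.90 in their controls, so each was below its littermate although the groups overlap. The ratio was -0.30 ± 0.11 (SD, n = 3), below 0 in 3 of 3 pairs, with unadjusted p = 0.00778 and adjusted p = 0.404. In SODgl, TAUmn and TAUgl the means were -0.033, 0.0014 and 0.045, each with pairs on both sides of 0. In SODmn the probe was well above background in 5 of 6 extracts. The transgenic extract of pair 4 was so on only 1 of its 2 arrays. In SODgl and in TAUgl the probe was well above background in only 4 of 8 extracts, and in TAUgl 3 pairs had a value. The glial ratios are therefore taken partly near background and are no measured contrast to that of motor neurons. The motor neuron ratio of SOD1-G93A minus that of TAU-P301L was -0.30 (adjusted p = 0.508). Beside it, in the SODmn pairs 8 of 9 general neuron markers were below 0, with a mean over the list of -0.35 to -0.084 per pair. Of 11 oligodendrocyte markers 10 were above 0, but the mean over that list ran from -0.11 to 0.28 per pair. The means over the motor neuron markers (-0.36 to 0.22; 11 of 18 below 0) and the interneuron markers (-0.37 to 0.15; 7 of 10 below 0) also lay on both sides of 0. The part of these markers in the result was not tested.

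Gpx1 followed catalase in sign in SODmn, at -0.22, -0.071 and -0.41 (mean -0.24, and -0.15 without pair 4; adjusted p = 0.623), and stood at 0.66, 0.070, 0.29 and -0.29 in TAUmn (mean 0.18, and 0.023 without pair 1). The difference of these means was -0.42, and -0.26 without TAUmn pair 1 (unadjusted p = 0.0338, adjusted p = 0.508 with all pairs), where 8.98% of all probes had an unadjusted p under 0.05. The further Gpx1 probe, A_51_P119726, did not share this direction. It read 0.0081, 0.53 and -0.22 in SODmn (mean 0.11) and had a mean of -0.0099 in TAUmn. The 2 arrays of SODmn pair 2 gave -0.087 and 1.15 for it. The further probe was well above background in 5 of 6 SODmn and 5 of 8 TAUmn extracts. Its difference between the models was 0.12 (limma adjusted p = 0.824), so the 2 probes differ here too, with the further one partly near background. Gpx4 was below 0 in all 4 SODgl pairs, at -0.038, -0.24, -0.045 and -0.80 (adjusted p = 0.417), with a mean of -0.28, and of -0.11 without pair 4. Neither glutathione peroxidase passed in any group.

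The 3 Prdx2 probes did not give one direction. Probe 1 was above 0 in all 3 SODmn pairs (0.031, 0.11 and 0.51), below 0 in all 4 TAUmn pairs (-0.17, -0.20, -0.59 and -0.044) and above 0 in all 4 TAUgl pairs (0.0026, 0.27, 0.39 and 0.34). The 2 arrays of a pair lay on both sides of 0 in SODmn pairs 1 (0.25 and -0.19) and 2 (0.26 and -0.042). The same held for TAUmn pairs 1 (0.15 and -0.49) and 4 (0.17 and -0.26) and for TAUgl pair 1 (-0.27 and 0.28). The means over pairs in SODmn, TAUmn and TAUgl were 0.22 (0.069 without pair 4), -0.25 (-0.14 without pair 3; unadjusted p = 0.035, adjusted p = 0.995) and 0.25 (0.034 and 0.323). Beside these, the 3 tested red cell markers were all below 0 in TAUmn, with a mean over the list of -0.79 to -0.088 per pair: Hbb-bt stood at -1.26, Hba-a1 at -0.31 and Slc4a1 at -0.096, each with an unadjusted p under 0.05 and adjusted p = 0.995. In TAUgl 2 of the 3 were below 0, with a mean over the list of -0.62 to -0.071 per pair, and in SODmn the mean over the list ran from -0.59 to 0.59. Their part in the result was not tested. The TAU-P301L ratio in motor neurons minus that in glia was -0.50 (unadjusted p = 0.0052, adjusted p = 0.998), where 4.27% of all probes had an unadjusted p under 0.05. Between the models, the motor neuron ratio in SOD1-G93A was higher by 0.47 (unadjusted p = 0.0129, adjusted p = 0.433).

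Prdx2 probe 2 had the smallest p of all member values in SODmn, with ratios of -0.22, -1.05 and -0.14. The mean was -0.47 ± 0.51 (SD, n = 3; limma unadjusted p = 0.0026, adjusted p = 0.342). This p uses a spread shared by all groups, among them SODgl (SD 0.079) and TAUgl (SD 0.14), where the probe was not tested. It therefore does not measure the spread of the 3 SODmn pairs alone. In SODmn the probe was well above background in 4 of 6 extracts. The 2 arrays of pair 2 gave 0.10 and -2.20, and without that pair the mean was -0.18. In SODgl the probe was above background in 1 of 8 extracts and was not tested. The SODmn minus SODgl difference of -0.50 (adjusted p = 0.419; unadjusted p = 0.0103, where 9.12% of all probes were under 0.05) is therefore taken against values near background, and it was -0.21 without SODmn pair 2. Its direction opposes that of probe 1, and probe 3 gave -0.19, 0.26 and -0.13.

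**Figure D4:**
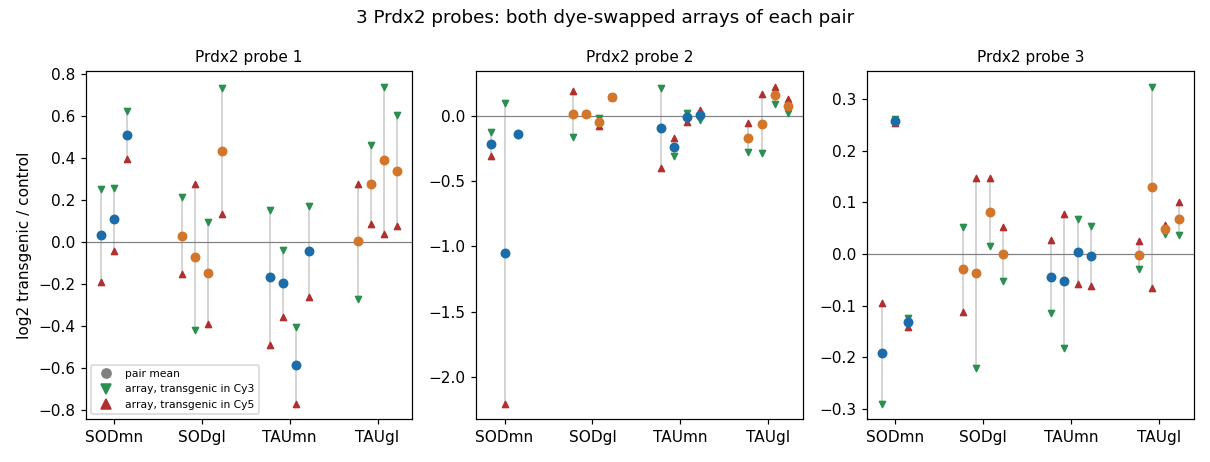
Log2 ratio of transgenic over control for the 3 Prdx2 probes by group: circles are pair means, and triangles the 2 arrays of a pair, pointing down with the transgenic extract in Cy3 and up in Cy5. The vertical scales differ; the single low triangle of probe 2 at -2.20 belongs to SODmn pair 2.

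Prdx1 and Prdx3 completed the peroxiredoxins. Prdx3, the mitochondrial one, read 0.23, 0.26, -0.024 and 0.32 in TAUmn (mean 0.20, unadjusted p = 0.0236, adjusted p = 0.995) and -0.12 in SODmn (adjusted p = 0.738), a difference between the models of -0.31 (adjusted p = 0.455). Prdx1 had means between -0.0055 and 0.080 in the 4 groups; it was dim, above background in 4 of 8 control glia extracts. Over the 156 alternative fits of the 8 member differences with an unadjusted p under 0.05, none passed the threshold or turned sign. The 8 were picked by that p in these same data, so the kept sign is no separate support for them.

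The genes whose pair ratios were most like those of Sod1 probe 1 over the 15 pairs, among 6541 probes measured in all pairs, were Zdhhc17 (Pearson r = 0.84), Blvrb (0.83), which encodes a biliverdin reductase, and S100a10 (0.82). Each pair has its own 2 arrays, all of the same design and dyes, and these values are descriptions of the ratios. Among the other 6 member probes measured in all pairs, the highest r was 0.34, of Prdx2 probe 1, and the lowest -0.29, of Prdx1.

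A wider list of 81 genes of copper handling, glutathione, thioredoxin, NADPH supply, Nrf2 control, repair and oxidant sources was read from the brightest probe of each gene. In control cells 26 of 56 tested genes were higher in motor neurons and 2 higher in glia. Over all probes under the same filter, counted per probe and not per gene, the shares were 34.3% and 10.4%. Of the 26, 20 were above background in at least 4 of the 8 control glia extracts, 5 in 1 to 3 and 1 in none. Those 6 met the filter through the motor neuron extracts alone, where they are high. Their place among the 26 therefore follows in part from the filter, and the sizes of their differences are not known. The list had a median of 0.25 beside 0.14 over all probes. The thioredoxin and glutaredoxin group had 8 of 13 higher, of which Txnrd3 met the filter through motor neurons alone. Among the 8 was Glrx5, by 1.20 (8.15 to 8.60 in motor neurons, 6.27 to 7.53 in glia, limma adjusted p = 4.4e-05). Glutathione synthesis and reduction had 3 of 3, Gclc, the rate-limiting subunit, by 0.74, Gsr, glutathione reductase, by 0.72, and Ggct by 0.56. Blvra (0.73) and the copper carrier of cytochrome oxidase Cox17 (1.27; 8.05 to 9.15 against 6.55 to 7.94) were also higher in motor neurons. Msra, which repairs oxidised methionine, passed too, but was above background in 1 of 8 glia extracts (6.59 to 6.91 in motor neurons, 5.75 to 6.45 in glia). In glia, Duox1 (-0.48) and the mitochondrial thioredoxin Txn2 (-0.44, adjusted p = 0.0484) were higher. None of the 5 tested members of the other peroxiredoxins and glutathione peroxidases passed.

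**Figure D5:**
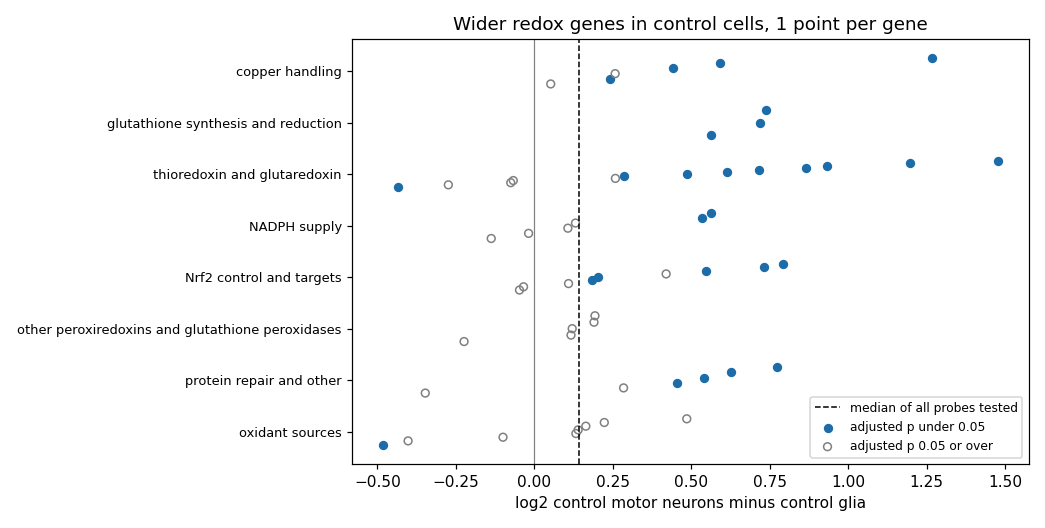
Difference in log2 level between control motor neurons and control glia for the wider redox genes, 1 point per gene in 8 groups; filled points passed the test. Of 56 genes, 26 filled points lie right of 0 and 2 left of it, and the dashed line marks the median of all probes at 0.14.

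In the transgenic comparisons none of the wider list passed (60, 47, 54 and 42 genes tested in SODmn, SODgl, TAUmn and TAUgl). Cox17 had the highest ratio of the list in both SOD1-G93A comparisons: 0.66, 0.058 and 2.09 in motor neurons (mean 0.94, adjusted p = 0.452) and 0.17, 1.06, 0.38 and 1.85 in glia (mean 0.87, adjusted p = 0.193). All 7 SOD1-G93A pairs were above 0. The TAU-P301L pairs read -0.67, -0.22, 0.025 and 0.63 in motor neurons and 0.13, -0.0047, 0.26 and 0.91 in glia. Pair 4 had the highest ratio in every group of both models. How many of all probes had 1 sign in all 7 SOD1-G93A pairs was not counted. The contrast between the models was noticed after the values were seen. Maoa (-0.30) and Ggct (-0.29) had the smallest p below 0 in SODmn, where Txnrd2 stood at 0.18. Sesn3 stood at 0.22, Duox1 at -0.15 and Commd1 at -0.21 in SODgl. In TAUmn the smallest p were those of Glrx2 (0.15), Glrx3 (0.23), Txnrd2 (-0.15) and Mafg (-0.054), and in TAUgl those of Park7 (0.33), Nos1 (0.30), Sesn2 (-0.35) and Duox1 (-0.11).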

How the data were processed

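Gene expression was measured on 32 two-colour arrays. Each deposited scanner file gives the linear intensity of every spot and its log10 ratio, made by the authors with Agilent Feature Extraction, 8.5.1.1 per the submitters' processing notes and the motor neuron file headers and 9.5.1.1 per the glia file headers. The authors' deposited value table gives log10 ratios, transgenic against control.

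Intensity was corrected with normexp (offset 50) and loess in limma 3.58.1 (R 4.3.3), with control spots at weight 0 and outlier-marked spots left out. Ratios were turned by dye, and the 2 arrays of each pair were averaged. A single limma fit with 1 mean per group was tested against 0, and for 4 differences, with Benjamini-Hochberg adjustment over all probes tested. Control levels came from Aquantile-normalised single channels, with colony as a covariate. Testing required a signal well above background, on both arrays, for 50% or more of a group's extracts. The test plan had all 16 pairs; the pair with the misplaced array was left out after seeing the files, so 15 pairs were fitted, and alternatives for that array, for the scan with high Cy5 signal and for scan as a fixed block were added then. Other alternatives changed the background correction, normalization, filter, outlier spots, replicate block and pairs used. The fits were tested on simulated data. All members and their probes are named; of the wider list, in each comparison up to 6 called genes in each direction by p, or else the 2 smallest p in each; of the marker lists, those with the smallest p. The members, lists and rules were chosen with earlier results of these data known. Series columns not matched to a sample number 0.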

Additional observations from a re-analysis of the deposited data

Results flagged for a closer look

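Among 48 groups of 4 to 8 values, 5 had a value far from the rest of its group, where chance gives about 1 in 20. Gpx4 read -0.345 in TAUmn pair 1, while the nearest of the other pairs was at 0.257. In control glia, the extract of TAUgl pair 4 was lowest for Sod2 (8.53, the nearest at 9.89) and for Prdx2 probe 1 (8.97, the nearest at 10.1). Prdx2 probe 2 read 7.46 in the control of SODmn pair 2 (the nearest at 6.48), the pair whose arrays gave 0.10 and -2.20. Prdx3 read 7.89 in the control of TAUgl pair 1 (the nearest at 7.10).

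Prdx2 probe 1 lay on opposite sides of 0 in every pair of the groups compared, in 2 comparisons. Its TAU-P301L ratio in motor neurons minus that in glia was -0.501, with 4 of 4 pairs below 0 and 4 of 4 above. The SOD1-G93A ratio minus the TAU-P301L ratio in motor neurons was 0.465, with 3 of 3 pairs above 0 and 4 of 4 below. Neither difference passed after adjustment over all probes (limma adjusted p = 0.998 and 0.433). How many of all probes separate the pairs in this way was not counted. The signs are those of pair means, and in some of these pairs the 2 arrays lay on both sides of 0, as given above.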

How the results depend on the processing

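The 8 member differences with an unadjusted p under 0.05 kept their direction and missed the threshold in all 156 alternative fits. The other differences were not refitted. Since the 8 were picked by their p in these same data, the kept direction is no separate support for them. Of all probes, 9.12% and 4.27% had such a p in the SOD1-G93A and TAU-P301L differences between cell types. In the model differences the shares were 8.98% in motor neurons and 5.54% in glia. Of 671 fits of the 39 member ratios, 59 turned sign, in 22 ratios, and none passed. Of the fits of the 11 control levels, 264 kept direction and call, 27 turned sign, in 6 probes, 6 newly passed (2 of them, Sod1 probe 1 and Prdx3 with the scanner's processed signals, with the sign turned) and 6 no longer passed. The cause was not tested. Counts of all probes passing rose from 0 to 1, 2 and 1 in SODgl, TAUmn and TAUgl with the scanner's processed signals, to 2, 1 and 1 with the series matrix, to 2 in SODgl with a normexp offset of 16, to 1 in SODmn with outlier spots kept and to 3 there with scan as a random block. Without scan 5, chosen after seeing the data, 1 probe passed in TAUgl and 1 in the TAU-P301L difference between cell types. Between control cell types 7000 became 12571 with no filter, 1100 with the strict filter, where fewer probes are tested, and 2510 and 2412 in the B6SJL and B6D2F1 controls alone. Leaving out 1 pair gave 2 to 77 probes in SODmn, 0 to 3 in TAUgl, 0 to 0 in SODgl and TAUmn, 0 to 1 in the SOD1-G93A and in the TAU-P301L difference between cell types, 0 to 109 and 0 to 1 in the model difference in motor neurons and in glia, and 5952 to 7437 between control cell types. The highest counts in SODmn (77) and in the motor neuron model difference (109) came without SODmn pair 2. Same-numbered samples correlated from -0.16 to 0.47 in their deviations, and 11 of 21 exceeded 0.1; since not every pair did, the numbers were not taken to pair the samples. With the replicate block 0 probes passed in each difference and 7145 between control cell types. Signs turned as follows (log2). Scanner processed signals gave Prdx1 -0.18 in SODmn, and Prdx1 -0.064 in TAUmn, and Ccs probe 3 0.042, Gpx1 0.075, Prdx1 0.44 and Prdx3 0.21 in TAUgl, and Sod1 probe 1 0.73, Ccs probe 3 0.33, Prdx1 0.49 and Prdx3 0.73 in control cell types. Normexp offset 16 gave Prdx1 0.0064 and Prdx3 0.027 in TAUgl. Median centring in place of loess gave Gpx4 -0.083 and Prdx2 probe 1 -0.077 in SODmn, and Sod1 probe 1 0.41, Sod2 0.26, Gpx1 0.071 and Gpx4 0.024 in SODgl, and Cat -0.011 in TAUmn, and Ccs probe 3 0.16, Gpx1 0.16, Prdx1 0.055 and Prdx3 0.14 in TAUgl. Outlier spots kept gave Sod2 -0.16 in SODmn, and Cat -0.025 in TAUgl. Deposited series matrix gave Sod2 -0.22 and Prdx1 -0.11 in SODmn, and Prdx1 -0.083 in TAUmn, and Ccs probe 3 0.042, Cat -0.083, Gpx1 0.12, Prdx1 0.33 and Prdx3 0.17 in TAUgl. Replicate block gave Gpx4 -0.0079 in control cell types. No colony covariate gave Gpx4 -0.0067 in control cell types. Controls of the SOD1-G93A colony only gave Gpx4 -0.014 and Prdx3 0.22 in control cell types. Controls of the TAU-P301L colony only gave Ccs probe 3 0.023 in control cell types. Quantile normalization of single channels gave Sod1 probe 1 0.024 in control cell types. Without the scan 5 pairs gave Sod1 probe 1 0.0047 and Cat 0.046 in SODgl, and Ccs probe 3 0.094, Gpx1 0.020 and Prdx3 0.078 in TAUgl, and Sod1 probe 1 0.021, Prdx1 0.16 and Prdx3 0.080 in control cell types. All arrays as deposited gave Sod2 -0.031 and Prdx2 probe 3 0.0037 in SODmn, and Sod2 -0.044, Gpx4 -0.17 and Prdx1 0.0092 in control cell types. Misplaced array moved by 2 rows gave Sod2 -0.13 in SODmn. Leaving out 1 pair or extract, values in SODmn ran as Gpx4 -0.039 to 0.25, Prdx2 probe 3 -0.16 to 0.063, Sod1 probe 1 -0.16 to 0.035 and Prdx1 -0.13 to 0.14. Leaving out 1 pair or extract, values in control cell types ran as Gpx4 -0.13 to 0.071, Prdx1 -0.13 to 0.078, Sod1 probe 1 -0.10 to 0.018 and Prdx3 -0.16 to 0.060. Leaving out 1 pair or extract, values in SODgl ran as Sod1 probe 1 -0.24 to 0.0047, Cat -0.10 to 0.046, Prdx3 -0.032 to 0.075, Sod2 -0.15 to 0.025, Ccs probe 3 -0.045 to 0.15, Gpx1 -0.086 to 0.061 and Prdx2 probe 1 -0.063 to 0.13. Leaving out 1 pair or extract, values in TAUmn ran as Prdx1 -0.066 to 0.057, Ccs probe 3 -0.014 to 0.14 and Cat -0.095 to 0.083. Leaving out 1 pair or extract, values in TAUgl ran as Ccs probe 3 -0.22 to 0.094, Gpx1 -0.081 to 0.020, Prdx3 -0.072 to 0.078 and Prdx1 -0.012 to 0.0060.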
